A study of Mus musculus with 6 samples.

Results

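The receptors through which granulosa cells read gonadotropins, prolactin, estrogen and progesterone were followed in mouse cumulus granulosa cells, the somatic cells that surround the oocyte. The set was defined by name as 7 genes, Lhcgr, Fshr, Prlr, Esr1, Esr2, Pgr and Pgrmc1. All 7 have a row among the 24982 genes of the authors' deposited table, and all 7 are among the 14835 genes with an adjusted p. The libraries fall into 3 labelled Atg5-KD (numbers 2, 3 and 4) and 3 labelled control (numbers 2, 3 and 4), all from Kun-Ming mice, an outbred stock. Short hairpin RNAs against Atg5, a gene needed to build the autophagosome membrane, were transfected. The labels do not give what the control cells received, how many hairpins were used, what share of cells took them up, or whether replicate libraries had different animals or cultures as their source. The p-values therefore measure the spread among these libraries alone, and that spread may be technical. The animals' age and any hormone priming are likewise not given.

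Pituitary follicle-stimulating hormone (FSH) and luteinizing hormone (LH) act on granulosa cells through sister receptors on the cell surface that couple to the stimulatory G protein and raise cAMP. FSH drives follicle growth and induces the LH receptor, the LH surge then triggers ovulation and luteinization, and prolactin acts through a cytokine-type receptor with JAK2 and STAT5 to sustain the rodent corpus luteum. Estrogen and progesterone act mainly through nuclear receptors that bind DNA, and mouse cumulus cells are known to carry much less LH receptor than the mural granulosa cells of the follicle wall.

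The values are those of the authors' deposited table, which gives for each gene a base mean over all 6 libraries (read counts divided by size factors, called normalized counts here), a log2 fold change with its standard error (SE), and a Wald test with Benjamini-Hochberg adjustment. The table pools the libraries, so values of single libraries were not analysed here and no overlap between groups can be described. The mean of each group was estimated from the base mean and the fold change and carries no error of its own. The direction is not written in the columns. The title of the table names KO first and CTr second. KO was taken to mean the libraries labelled Atg5-KD, and the order was read as Atg5-KD over control. If that order were turned, every rise below would be a fall and every group mean would belong to the other group. Atg5 gives no check of the direction, since its log2 fold change by the authors' deposited table was -0.06 ± 0.14 (SE, Wald adjusted p = 0.822). Its estimated means were 397 normalized counts in Atg5-KD and 414 in control, with a 95% interval of the change from -20.7% to 15.9%. A knockdown of Atg5 mRNA is therefore not seen in the deposited values.

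Of the 7 receptors, Lhcgr and Prlr rose and Esr2 fell in the libraries labelled Atg5-KD, while Fshr, Esr1, Pgr and Pgrmc1 stayed short of an adjusted p under 0.05 by the authors' deposited table. Over all tested genes 20.9% passed in either direction, 10.4% higher and 10.5% lower, and 24.8% of the 11296 genes with a base mean of at least 50 passed, a level that 6 of the 7 receptors reach. The median log2 fold change of the 7 was 0.16, beside 0.00417 for all tested genes, by the authors' deposited table (-0.14 when scaled to all reads, beside -0.29). The estimated share of reads on the ribosomal RNA locus Rn45s was 17.9% in Atg5-KD and 1.17% in control. Scaling to all reads, Rn45s included, lowers every log2 fold change by 0.30 (a shift of -0.30) and turns the split of all calls from 1541 higher and 1559 lower to 534 higher and 5735 lower. Under that scaling, too, 2 receptors were higher and 1 lower. With Rn45s left out of the reads scaled to, the shift was -0.03 and all calls split into 1371 higher and 1817 lower. The receptor counts were again 2 higher and 1 lower.

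**Figure D1:**
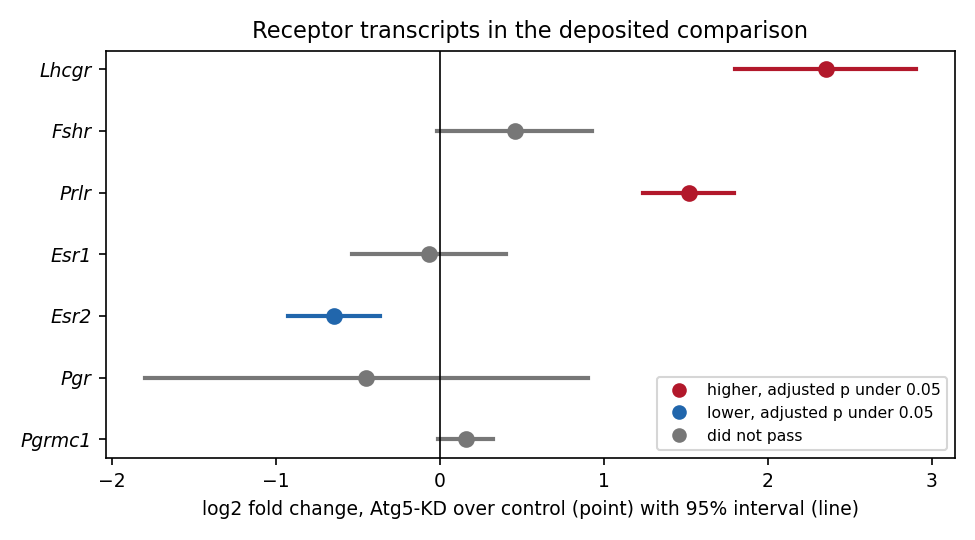
Log2 fold change of each receptor transcript, Atg5-KD over control (horizontal axis), as a point with its 95% interval as a line, from the authors' deposited table (3 libraries labelled Atg5-KD and 3 control). Lhcgr at 2.35 and Prlr at 1.52 lie right of 0 and Esr2 at -0.64 left of it, while the lines of Fshr, Esr1, Pgr and Pgrmc1 cross 0.

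The labelled cell type was checked against granulosa markers, of which Inha, Fst, Foxl2, Nr5a2 and Amhr2 had base means from 842 to 30063 normalized counts, while Amh had 6.07 and Cyp19a1 2.34. Of the 6 tested, 1 was higher (Nr5a2) and 2 were lower (Foxl2 and Fst) by the authors' deposited table (1 and 3 when scaled to all reads). Their summed estimated level was 37593 normalized counts in Atg5-KD and 40929 in control. Of the markers of luteal cells, which carry much Lhcgr and Prlr, 6 of 7 were higher and 0 lower by the authors' deposited table, with a summed estimated level of 197149 normalized counts in Atg5-KD and 120032 in control (5 and 0 when scaled to all reads). Of these 7, 4 (Star, Cyp11a1, Sfrp4 and Akr1c18) also stand in the FSH, LH or prolactin lists. Of the tested markers of theca and stroma, which carry Lhcgr and Esr1, 6 of 7 were lower and 0 higher by the authors' deposited table, with summed levels of 7930 in Atg5-KD and 16777 in control, and the theca markers Cyp17a1 and Insl3 had base means of 0.13 and 2.40. Of the leukocyte markers 9 of 10 were lower and 0 higher by the authors' deposited table, with sums of 508 in Atg5-KD and 2171 in control. For markers of oocyte, endothelium and reproductive tract epithelium 0 of 5, 0 of 6 and 0 of 6 passed by the authors' deposited table, with summed levels of 76.2, 248 and 1820 normalized counts in Atg5-KD and of 62.4, 287 and 1864 in control. The tested oocyte markers had base means from 8.39 to 19.8 and SEs from 0.46 to 0.68, so only large changes could pass. The epithelial sum lay mostly in the keratins Krt8, Krt18 and Krt19, at base means of 816, 673 and 269. Ovgp1, Epcam and Pax8 had 54.8, 21.4 and 7.14. The part of these markers' cells in the receptor values was not tested, and in bulk RNA fewer cells of a type and less RNA per cell cannot be told apart.

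Lhcgr, the receptor of LH, showed the largest difference of the set. Its estimated mean was 263 normalized counts in Atg5-KD, against 51.4 in control. The log2 fold change by the authors' deposited table was 2.35 ± 0.28 (SE, Wald adjusted p = 6e-15), which is 5.11-fold, with a 95% interval from 3.49-fold to 7.49-fold. Among the 11296 tested genes with a base mean of at least 50 this was the 43rd largest rise. The gene lies on the minus strand of chromosome 17, from 88716481 to 88791990 in the GENCODE M21 annotation of GRCm38, has 4 annotated transcripts and encodes up to 700 residues.

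Fshr, the receptor of FSH and the close relative of Lhcgr, lies on the same strand of the same chromosome from 88984952 to 89200675 and encodes 692 residues. Its estimated mean was 108 normalized counts in Atg5-KD and 78.7 in control. The log2 fold change by the authors' deposited table was 0.46 ± 0.24 (SE, Wald adjusted p = 0.175) with a 95% interval from -0.01 to 0.93. At this spread a log2 change of 0.62 or more would have passed the threshold. The interval of Fshr lies wholly below that of Lhcgr, which ran from 1.80 to 2.90, but the difference between the receptors was not tested, since both values come from the same libraries.

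The start regions of both gonadotropin receptor genes are printed here with those of Prlr and Esr2, the other receptors that passed, so that the letters upstream of the gonadotropin receptor that passed and of its sister that did not can be compared. All come from RefSeq's GRCm38.p6 table and are read 5′ to 3′ on the gene's own strand outside every annotated exon. Lhcgr is at chr17:88792060-88792264 (minus strand), Fshr at chr17:89200676-89200925 (minus strand), Prlr at chr15:10176988-10177237 (plus strand) and Esr2 at chr12:76177260-76177509 (minus strand). Capitals mark GGGCGG (a GC box, read by Sp1-type factors), CACGTG (an E box, read by USF-type factors), AGGTCA (the core of a nuclear receptor element) and TTCNNNGAA (the STAT element), on either strand.
Lhcgr: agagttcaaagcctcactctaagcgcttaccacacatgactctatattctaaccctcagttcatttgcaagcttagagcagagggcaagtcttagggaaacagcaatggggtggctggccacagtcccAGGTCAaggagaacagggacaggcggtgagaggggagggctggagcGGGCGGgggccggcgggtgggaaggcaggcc
Fshr: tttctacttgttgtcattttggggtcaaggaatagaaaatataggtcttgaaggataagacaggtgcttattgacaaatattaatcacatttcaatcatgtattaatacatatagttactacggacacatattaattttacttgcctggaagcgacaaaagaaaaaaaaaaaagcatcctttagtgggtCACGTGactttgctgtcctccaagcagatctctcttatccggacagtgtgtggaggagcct
Prlr: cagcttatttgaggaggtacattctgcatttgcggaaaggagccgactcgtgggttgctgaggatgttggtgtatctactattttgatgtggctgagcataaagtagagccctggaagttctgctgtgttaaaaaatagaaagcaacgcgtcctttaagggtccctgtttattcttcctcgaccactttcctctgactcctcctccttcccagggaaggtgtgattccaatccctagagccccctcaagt
Esr2: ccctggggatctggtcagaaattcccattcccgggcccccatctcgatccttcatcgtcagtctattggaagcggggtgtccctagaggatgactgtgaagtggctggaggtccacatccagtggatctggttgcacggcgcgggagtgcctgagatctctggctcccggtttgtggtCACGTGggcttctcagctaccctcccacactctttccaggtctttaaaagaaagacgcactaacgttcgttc

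The printed stretch of Lhcgr holds 1 of its GGGCGG places, and the rest lie nearer the start, in bases not printed. In the whole 300-base windows, from 250 bases before to 50 after the start, Lhcgr held GGGCGG at 4 places, Pgrmc1 at 5 and Pgr at 1, and the windows of Fshr, Prlr, Esr1 and Esr2 at 0. This motif was in 35.7% of all 32851 windows of that length and in 60.2% of those of tested genes. Fshr and Esr2 each held 1 CACGTG, 61 and 72 bases before the start, a motif in 7.15% of all windows. Lhcgr held 1 AGGTCA, 122 bases before the start, which 16.3% of windows hold. Prlr has 3 windows in the table, and TTCNNNGAA, present in 8.30% of all windows, was in the second of them at 110 bases before its start and not in the printed one. Of the 2 windows of Esr1, 1 held it too. TGACG, the core of the cAMP response element, was in the windows of Esr2, Pgrmc1 and the second Prlr start and in 20.8% of all windows, and TATAA was in those of Pgr and Pgrmc1 and in 24.9% of all. Among windows of tested genes the shares were 9.65% for CACGTG, 12.9% for AGGTCA, 6.77% for TTCNNNGAA, 29.3% for TGACG and 13.9% for TATAA. Both strands were searched. TGACG and the reverse strand of AGGTCA begin with the same letters, but no matches in the windows of the 7 genes overlapped. Each match describes letters only, and a motif missing from these windows was not looked for elsewhere.

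Prlr, the prolactin receptor, rose. Its estimated mean was 5485 normalized counts in Atg5-KD, against 1917 in control. In the authors' deposited table the log2 fold change was 1.52 ± 0.14 (SE, Wald adjusted p = 3.95e-24), or 2.86-fold with a 95% interval from 2.36-fold to 3.47-fold. By p-value it ranked 60th of all tested genes and Lhcgr 154th. The gene lies on the plus strand of chromosome 15, from 10177238 to 10349180, and has 12 annotated transcripts. The long and short receptor forms known in mouse cannot be told apart in a value per gene. It shares 203 exonic bases with the predicted gene Gm21973 on the same strand, whose reads were not analysed here.

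Esr2, the estrogen receptor beta that predominates in granulosa cells, fell. Its estimated mean was 1101 normalized counts in Atg5-KD, against 1720 in control. The log2 fold change by the authors' deposited table was -0.64 ± 0.14 (SE, Wald adjusted p = 0.000115), so the level fell by 36.0%, with a 95% interval of the change from -47.3% to -22.3%. The direction was the same under every scaling tried, at -0.94 when scaled to all reads. A test against log2 changes of up to 0.32 in either direction did not call it (adjusted p = 0.349, against 1.03e-09 to 0.349 over its 9 alternatives). The gene lies on the minus strand of chromosome 12 from 76120419 to 76177259.

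Esr1, the estrogen receptor alpha that the ovary carries mainly in theca and stroma, was low. It had an estimated mean of 78.4 normalized counts in Atg5-KD and 82.0 in control. The log2 fold change by the authors' deposited table was -0.06 ± 0.24 (SE, Wald adjusted p = 0.895), with a 95% interval from -0.54 to 0.41 that overlaps the interval of Esr2, -0.92 to -0.36. Esr1 lies on chromosome 10 from 4611593 to 5005614. Whether the estrogen receptors differed from each other was not tested.

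Pgr, the nuclear progesterone receptor that the LH surge induces in granulosa cells and that follicle rupture requires, had few counts, with an estimated mean of 7.77 normalized counts in Atg5-KD and 10.6 in control. The log2 fold change by the authors' deposited table was -0.45 ± 0.69 (SE, Wald adjusted p = 0.719), with a 95% interval from -1.80 to 0.90. With this SE a change below 3.40-fold could not have passed. The gene is on chromosome 9 from 8899833 to 8968611.

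Pgrmc1, a heme-binding membrane protein that takes part in progesterone's survival signal in granulosa cells, was abundant and gave the tightest estimate of the set. The estimated means were 2907 normalized counts in Atg5-KD and 2605 in control. In the authors' deposited table the log2 fold change was 0.16 ± 0.09 (SE, Wald adjusted p = 0.193), with a 95% interval from -0.01 to 0.33, and scaling to all reads brought it to -0.14. A rise above 25.4% or a fall of more than 0.711% lies outside the interval as deposited. The gene is on chromosome X from 36598206 to 36606079.

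**Figure D2:**
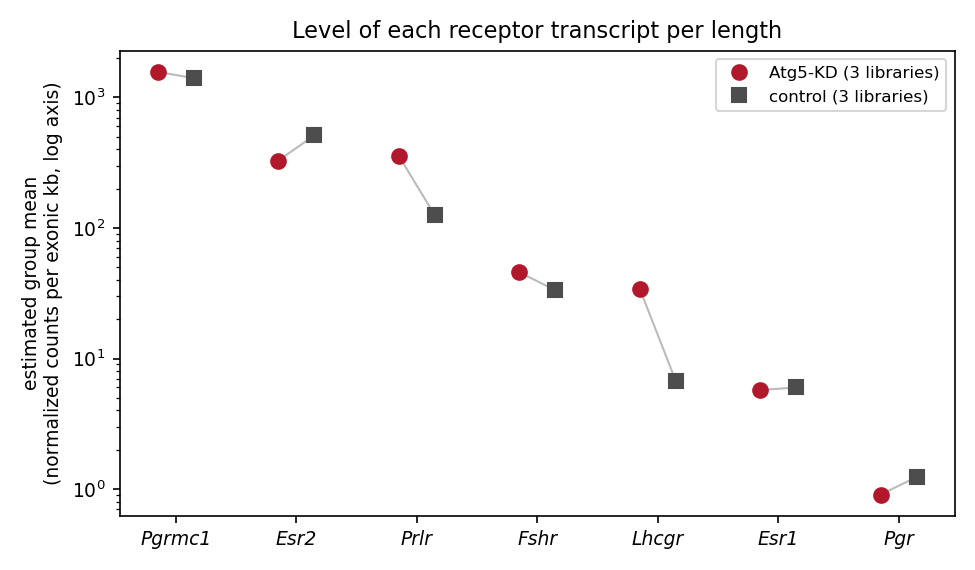
Estimated group mean of each receptor transcript in normalized counts per exonic kilobase (vertical log axis), with Atg5-KD as red circles and control as grey squares, ordered by the level in control. No error is drawn because the table pools the libraries. Pgrmc1 stands highest at 1565 in Atg5-KD and 1403 in control and Pgr lowest at 0.909 and 1.24, and the Prlr and Esr2 circles lie close together while their squares are apart.

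Levels were set side by side between genes per kilobase of merged GENCODE exons. Pgrmc1 led, with an estimated level of 1565 normalized counts per kilobase in Atg5-KD and 1403 in control. Prlr stood at 358 per kilobase in Atg5-KD and 125 in control, and Esr2 at 327 and 511, so the estimated order of these receptors was turned between the groups. The gonadotropin receptors followed, Fshr at 45.8 per kilobase in Atg5-KD and 33.4 in control, and Lhcgr at 34.4 and 6.72. Lhcgr was thus at 0.750 of the Fshr level in Atg5-KD and 0.202 of it in control. Esr1 had 5.74 per kilobase in Atg5-KD and 6.001 in control, and Pgr 0.909 and 1.24. On merged exons Esr2 exceeded Esr1 by 57.0 times in Atg5-KD and by 85.1 times in control. The sources used here do not give the annotation used for counting. Ratios between genes and the order of close neighbours depend on the length taken. With the longest transcript in place of the merged exons, Esr1 had 12.4 in Atg5-KD and 12.9 in control, and Lhcgr 38.5 and 7.53, so that in control Esr1 stood above Lhcgr. Esr2 then had 327 in Atg5-KD and 512 in control, so its excess over Esr1 was smaller than on merged exons.

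**Figure D3:**
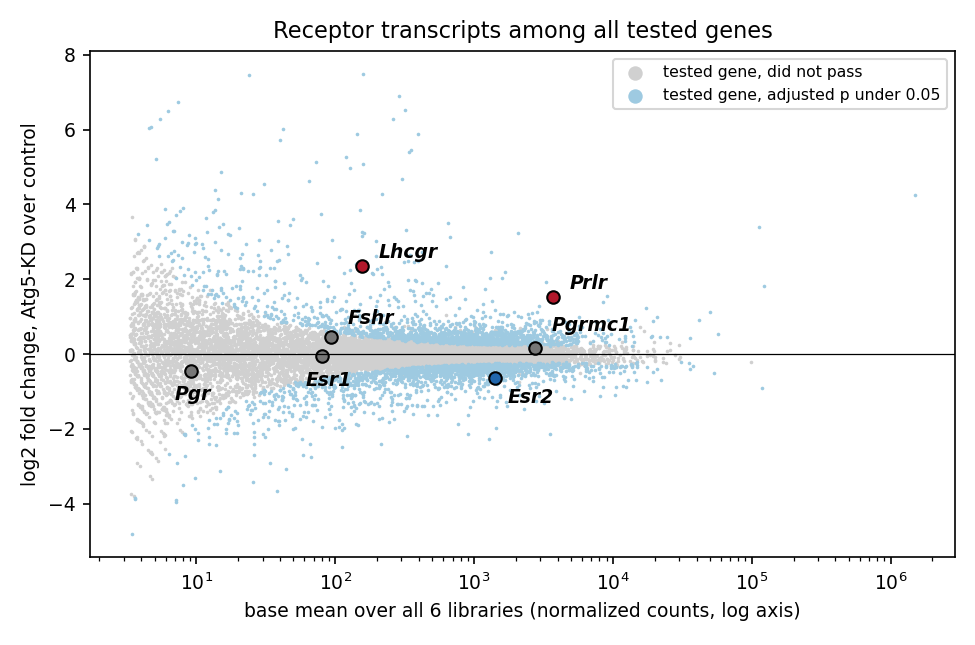
Base mean (horizontal log axis, normalized counts) against log2 fold change, Atg5-KD over control (vertical axis), for all 14835 tested genes of the authors' deposited table, with the 7 receptors labelled and coloured red (higher), blue (lower) or grey (did not pass), and other genes light blue where they passed and light grey where they did not. Lhcgr and Prlr lie above the band of unpassed genes, Esr2 below it, and Pgr at the low-count end on the left where that band is wide.

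Transcripts of the pituitary hormones read here were at or near 0. Cga, Fshb, Prl and Gh are listed at a base mean of 0, and Lhb at 2.16 and Tshb at 0.33 were too low to be tested. Around the receptors, 12 further lists of genes with tested members were read, holding 121 different tested genes. Of these, 26 were higher and 22 lower (39.7%, median log2 fold change 0.04) by the authors' deposited table. Over all tested genes 20.9% passed, and 24.8% of those with a base mean of at least 50. Each list count below stands beside the same shares. These lists were chosen with earlier results of these data known, and 7 genes stand in more than 1 of them.

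Inside the cell the gonadotropin signal passes through the Gs-cAMP-PKA relay. Of its 14 tested genes 1 was higher and 2 were lower, beside the 20.9% of all tested genes that passed, by the authors' deposited table, with a median log2 fold change of 0.11 (0 higher and 5 lower with a median of -0.19 when scaled to all reads). Rapgef4, the cAMP-activated exchange factor EPAC2, stood at -1.501 ± 0.29 (SE), Gnas, the stimulatory G protein alpha subunit, at -0.33 ± 0.09 (SE), and Creb1, the cAMP-responsive transcription factor, at 0.37 ± 0.14 (SE) by the authors' deposited table. Of 7 genes of receptor desensitisation and turnover, 1 was lower, the beta-arrestin Arrb2 at -0.47 ± 0.15 (SE), and 0 were higher by the authors' deposited table, with a median of -0.19 (0 higher and 5 lower when scaled to all reads, and a median of 0.017 with the GC and length trend taken out). Mvk, whose protein binds and destabilises Lhcgr mRNA in rat ovary, was at 0.05 ± 0.16 (SE) and did not pass by the authors' deposited table, and was named after its value was seen. With the trend across GC content and length taken out, Arrb2, Gnas and Creb1 lost their calls, and Creb1 changed sign, to -0.069.

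Transcription factors known to act on the gonadotropin receptor promoters split in both directions, with 3 of 13 higher and 4 lower and a median log2 fold change of -0.24 by the authors' deposited table (1 higher and 8 lower when scaled to all reads, and a median of 0.0053 with the GC and length trend taken out). Foxo1, which restrains granulosa differentiation and is shut down by FSH, was at -0.98 ± 0.14 (SE), Foxl2, which maintains granulosa identity, at -0.49 ± 0.10 (SE), and Gata6 at -0.42 ± 0.12 (SE) by the authors' deposited table. Nr5a2, an orphan receptor required for ovulation and luteinization, was at 0.62 ± 0.12 (SE) by the authors' deposited table. The remaining calls, named after their values were seen, were Sp1 at 0.39, Sp3 at 0.34 and, on the lower side, Nr5a1 at -0.25 by the authors' deposited table. Foxo1 and Nr5a2 kept their calls with the GC and length trend taken out, while Foxl2, Gata6, Sp1, Sp3 and Nr5a1 lost theirs.

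FSH-induced genes moved in both directions in equal number, 5 of 13 higher and 5 lower, with a median log2 fold change of -0.01 by the authors' deposited table (2 higher and 7 lower when scaled to all reads, and a median of 0.078 with the GC and length trend taken out). Ihh, a hedgehog ligand, was at -2.42 ± 0.33 (SE), Inhbb, the activin beta B subunit, at -1.14 ± 0.15 (SE), Hsd17b1, which makes estradiol, at -0.79 ± 0.11 (SE), and Sgk1, an FSH-induced kinase, at 0.53 ± 0.09 (SE) by the authors' deposited table. Cyp19a1, the aromatase, had a base mean of 2.34 and was not tested. LH-induced genes had 5 of 16 higher and 2 lower, with a median of 0.22 by the authors' deposited table (5 and 4 when scaled to all reads, median -0.07). Star, which carries cholesterol into mitochondria, was at 1.42 ± 0.14 (SE), Cyp11a1, which makes pregnenolone, at 1.12 ± 0.12 (SE), and Adamts1, a matrix protease, at 0.99 ± 0.12 (SE) by the authors' deposited table. Rgs2, a brake on G protein signalling, was at -1.16 ± 0.13 (SE) by the authors' deposited table. The remaining calls of the LH list, named after their values were seen, were Ereg, an EGF-like ligand of the cumulus response, at 0.99 ± 0.24 (SE), the transcription factor Runx2 at 0.61 ± 0.11 (SE) and, on the lower side, the immediate early factor Egr1 at -0.56 ± 0.12 (SE), by the authors' deposited table.

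In the list around the prolactin receptor (its JAK2-STAT5 relay, targets and the related receptor Ghr), 4 of 13 genes were higher and 2 lower. The median log2 fold change was 0.06 by the authors' deposited table. Both STAT5 genes, which encode the transcription factors the receptor activates, were higher, Stat5a at 0.41 ± 0.10 (SE, Wald adjusted p = 0.00044) and Stat5b at 0.41 ± 0.10 (SE, Wald adjusted p = 0.00024) by the authors' deposited table. Cish, a STAT5 target, at 0.47 and the cell cycle inhibitor Cdkn1b at 0.34 were the other higher members by the authors' deposited table, named after their values were seen. Socs3, a feedback inhibitor of JAK kinases, was at -0.70 ± 0.17 (SE), and Ghr, the related growth hormone receptor, at -0.64 ± 0.17 (SE) by the authors' deposited table. Scaling to all reads left 0 higher and 5 lower (median -0.24), whereas Prlr was still called higher at 1.22. Akr1c18, the luteal progesterone-breaking enzyme that prolactin represses, was at 0.03 ± 0.16 (SE) and did not pass by the authors' deposited table, and was likewise named after its value was seen. Cdkn1b also lost its call with the GC and length trend taken out, at 0.21.

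Among estrogen receptor coregulators and targets 3 of 12 were higher and 2 lower, with a median log2 fold change of 0.06 by the authors' deposited table (0 and 4 with a median of -0.23 when scaled to all reads, 0 and 1 with the GC and length trend taken out). Ncoa1, a coactivator, was at 0.46 ± 0.13 (SE), Phb2, a repressor of estrogen receptor activity, at -0.32 ± 0.10 (SE), and Igf1, a growth factor of granulosa cells, at -0.45 ± 0.10 (SE) by the authors' deposited table. Nppc, which encodes the peptide that holds the oocyte in meiotic arrest, was at 1.24 ± 0.48 (SE) with a low base mean of 19.7 by the authors' deposited table. Among progesterone receptor targets 2 of 9 passed as higher and 2 as lower (median 0.04) by the authors' deposited table (1 and 3 with a median of -0.26 when scaled to all reads, and a median of -0.16 with the GC and length trend taken out). Epas1, the hypoxia factor HIF-2 alpha, was at -1.97 ± 0.29 (SE), Pparg, a lipid-sensing receptor, at -0.49 ± 0.11 (SE), Hif1a, the hypoxia factor HIF-1 alpha, at 0.30 ± 0.08 (SE), and Adamts1, which is also in the LH list, rose by the authors' deposited table. Hif1a lost its call and its sign when scaled to all reads, at -0.00117, and its call with the GC and length trend taken out, at 0.11. Of 9 membrane progesterone receptors and Pgrmc1 partners 0 were higher and 1 lower by the authors' deposited table, Paqr7, the membrane receptor alpha, at -0.63 ± 0.11 (SE), with a list median of -0.24 (0 and 5 when scaled to all reads). Pgrmc2, the paralog of Pgrmc1, was at -0.24 ± 0.09 (SE, Wald adjusted p = 0.051) by the authors' deposited table, named after its value was seen. It passed as lower under each scaling to all reads, with all tested genes centred at 0, and among genes with a base mean of at least 50.

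**Figure D4:**
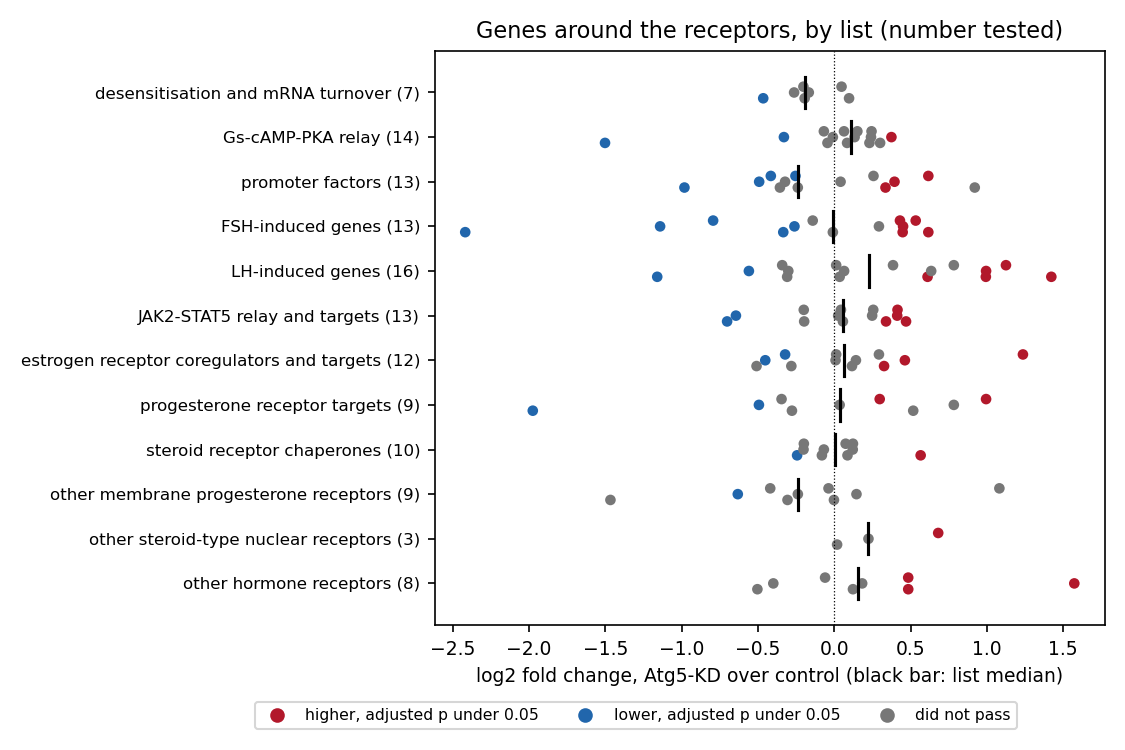
Log2 fold change, Atg5-KD over control (horizontal axis), of the tested genes around the receptors, 1 point per gene and 1 line per list, with the number tested in parentheses and the list median as a black bar, from the authors' deposited table. Red points passed as higher, blue as lower and grey did not pass. Passing genes lie on both sides of 0 in most lists, and the FSH-induced list has 5 on each side.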

How the data were processed

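RNA sequencing of 6 libraries of mouse cumulus granulosa cells, 3 labelled Atg5-KD and 3 control, was read through a single table. The submitters' processing notes name DESeq2 1.30.1, StringTie 2.1.4, STAR, featureCounts 1.6.2 and the build mm10, with no role or order. Per the file headers, the base mean is a signal value of the authors (counts over size factors), the log2 fold change and its SE are log2 values of the authors, and the Wald value is a score from the authors' fit. The authors deposited a p-value and an adjusted p-value for each gene. Strandedness and depth per library are not given in the sources used here, and 0 columns hold values per library. The planned branch for a table of comparisons was therefore followed.

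Of 24982 rows, 19241 have a p-value and 14835 an adjusted p, all of these with a base mean of at least 3.31. The adjusted p was checked to be the Benjamini-Hochberg value over the 14835 rows (0 differed at a tolerance of 1e-06). A gene was called at an adjusted p under 0.05. Group means were estimated as the values whose average is the base mean and whose ratio is the fold change. Intervals are the value ± 1.96 SE of the log2 ratio between groups, with the SE as the authors' fit gave it. They do not show how far single libraries lie apart. Named genes are the 7 receptors, Atg5, up to 4 called genes with the smallest adjusted p of each list, or the 2 most abundant of a list without a call, and genes outside this rule are said to be named after their values were seen. No gene was named for likeness to a receptor, which needs values per library. The receptors and lists were chosen with earlier results of these data known. Lengths, GC content and positions came from GENCODE M21 and promoters from RefSeq (GRCm38.p6). All 7 receptors matched both. Python 3.11.15, pandas 2.3.3, scipy 1.17.1 and matplotlib 3.10.9 were used, and the functions were tested on simulated data. The 9 alternatives computed are given in the closing section.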

Additional observations from a re-analysis of the deposited data

How the results depend on the processing

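The calls of Lhcgr and Prlr held under all 9 alternatives computed, with log2 fold changes from 2.05 to 2.35 and from 1.07 to 1.52. Fshr, Esr1 and Pgrmc1 were called under 0 of 9 and Pgr under 0 of the 8 that test it. Esr2 ranged from -0.94 to -0.58 and lost its call only under the null of log2 changes up to 0.32, where its value was -0.64 and 0 receptors were lower. The all-gene counts, 1541 higher and 1559 lower as deposited, became 534 and 5735 when scaled to all reads, 1026 and 1030 at an adjusted p under 0.01, 649 and 640 with a fold of at least 1.5, 341 and 283 under the null of 0.32, and 947 and 1108 with the GC and length trend taken out. With the median of all tested genes at 0 they were 1512 and 1598, and scaled to all reads without Rn45s 1371 and 1817. Adjusted over every p-value they were 1456 and 1450, and among genes with a base mean of at least 50, 1423 and 1505. For the pathway genes together, 26 higher and 22 lower became 10 and 52 when scaled to all reads and 23 and 25 without Rn45s. They were 9 and 10 with the fold filter and 4 and 7 under the null of 0.32. By their construction the stricter settings make fewer calls, and scaling to all reads shifts every value by -0.30 (-0.03 without Rn45s). The filters, thresholds, wider adjustment and null leave each log2 fold change as deposited. Only the scalings, the centring at 0 and the GC and length trend could move it. For the GC and length trend the cause was not tested. Of the named list genes called as deposited, Creb1 changed sign with the GC and length trend taken out (-0.069). Hif1a did so when scaled to all reads (-0.00117), and neither passed there. Akr1c18 and Mvk, called under no setting, also changed sign, ranging from -0.27 to 0.03 and from -0.25 to 0.25. With the GC and length trend taken out, 14 named genes besides Creb1 lost their calls with no change of sign (Arrb2, Cdkn1b, Foxl2, Gata6, Gnas, Hif1a, Hsp90ab1, Insr, Ncoa1, Nppc, Nr5a1, Phb2, Sp1 and Sp3). When scaled to all reads, 11 besides Hif1a lost theirs (Cdkn1b, Cish, Creb1, Insr, Lgr4, Ncoa1, Nppc, Sp1, Sp3, Stat5a and Stat5b). Of the named genes, 8 lost their calls at an adjusted p under 0.01, 23 with the fold filter and 31 under the null of 0.32. Atg5 was called lower only when scaled to all reads, at -0.36. No paired analysis was possible because the table holds no values per library, and for the same reason leaving out replicates and a second count tool were not run.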

Other observations

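Receptors and chaperones outside the set were also read. Oxtr, the oxytocin receptor, rose 2.97-fold in the libraries labelled Atg5-KD (1.57 ± 0.18, SE, Wald adjusted p = 4.47e-16) by the authors' deposited table, with estimated means of 314 normalized counts in Atg5-KD and 106 in control. Insr, the insulin receptor, at 0.48 ± 0.13 (SE) and Lgr4, an R-spondin receptor of the same G protein-coupled family as the gonadotropin receptors, at 0.48 ± 0.11 (SE) made up the 3 of 8 other hormone receptors that were higher by the authors' deposited table, with 0 lower (1 and 1 when scaled to all reads). Insr and Lgr4 lost their calls when scaled to all reads, each at 0.19. Insr also lost its call with the GC and length trend taken out, at 0.20. The glucocorticoid receptor Nr3c1 was at 0.68 ± 0.14 (SE), the 1 call among 3 tested steroid-type nuclear receptors by the authors' deposited table (also 1 higher and 0 lower when scaled to all reads). Of 10 steroid receptor chaperones, Fkbp5, a glucocorticoid-inducible cochaperone, was higher at 0.57 ± 0.09 (SE) and Hsp90ab1 lower at -0.24 ± 0.08 (SE) by the authors' deposited table (1 and 6 when scaled to all reads). Hsp90ab1 lost its call with the GC and length trend taken out, at -0.16.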
